A study of Mus musculus with 8 samples.

Results

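Lungs of mouse pups given dexamethasone alone were set against lungs of pups given retinoic acid alone, on the 2 arrays titled Dex and the 2 arrays titled RA. These are 4 of the 8 arrays of a study of alveolar septation, and they were chosen by their titles, not by any measured value. Per the labels, pups received oil or retinoic acid at 3 days of age, and on day 4 each of those groups was divided between saline and dexamethasone, after which the lungs were snap frozen. The Dex lungs therefore had oil and then dexamethasone, the RA lungs retinoic acid and then saline, and the group titled RA-Dex both agents. The group titled Dil is defined by no label and was taken as oil and saline, the one arm left. All 4 groups thus had 2 administrations, and each is represented by 2 arrays lettered a and b. The sources used here give no dose, strain, sex or time of collection. Nor do the labels say if the a and b arrays come from different animals, from pools or from 1 extract hybridized again, so the p-values speak only of the spread among these arrays. RNA came from whole lung, in which fewer cells of a type and less RNA per cell cannot be told apart.

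Septation is the step in which ridges of tissue grow out from the walls of the saccules of the newborn lung and divide them into alveoli. It needs proliferating fibroblasts that answer to platelet-derived growth factor, newly laid elastin, and a dense capillary network in the new walls. Glucocorticoids act through the glucocorticoid receptor, a nuclear receptor that binds DNA and raises or lowers transcription, and dexamethasone, a synthetic one, thins the septal walls early and stops new septa from forming in rodents. Retinoic acid acts through the RAR and RXR nuclear receptors and is known as a promoter of septation. The comparison sets the inhibitor and the promoter side by side, each given without the other.

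The values are hybridization signals on a linear scale, which the authors had scaled so that all arrays share 1 trimmed mean. The median signal per array lay between 317.3 and 342.7, and between 23.31% and 25.68% of signals lay at or under the floor of 85.3 that was set before log2 was taken. Lung transcripts were abundant in all arrays, among them Sftpc (surfactant protein C) at 67474 and 66507.5 in Dex and 72542 and 75237.5 in RA, Scgb1a1 (the club cell secretory protein) at 40487 and 40543 against 43229 and 49672.5, and Ager (a type I cell receptor) at 24940.1 and 24261 against 24699 and 29066.5. None of the 3 passed the test, nor did Sftpb, Cdh5 or the haemoglobin gene Hba-a1. Of 21 T and NK cell markers with a probe set, 5 were at or under the floor on all 4 Dex and RA arrays, among them the defining Cd3e, Cd3g and Cd2, and 7 were bright enough to be tested, among them Rag1 at 685 and 569.8 in Dex and 725 and 755.5 in RA and Thy1 at 204 and 266 and 181.5 and 345.

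Of 7309 probe sets tested, 238 (3.26%) differed between Dex and RA at an adjusted p under 0.05 in limma's moderated test. Of these, 148 (2.02%) were higher in Dex and 90 (1.23%) higher in RA. Over 2-fold lay 96 of the former and 46 of the latter, and the smallest called difference was 0.52 on the log2 scale. The median log2 difference of all tested probe sets was -0.02. Without regard to the test, both Dex arrays lay above both RA arrays in 1443 probe sets (19.7%) and both RA arrays above both Dex arrays in 1756 (24.0%), and all 238 called probe sets were among these. The called probe sets with 1 gene symbol stood for 126 genes higher in Dex and 77 higher in RA. Of 218 such probe sets, 56 were called again in each of 8 fits that left out 1 array, 41 of them higher in Dex and 15 higher in RA; in a fit where an arm had 1 array left, that array was assumed to vary like the other groups. The total fell to 94 without Dex replicate a and to 83 without Dex replicate b, where 55 and 56 were higher in Dex and 39 and 27 higher in RA. The count higher in RA also fell to 48 without RA replicate a, 52 without RA replicate b, 53 without RA-Dex replicate a and 55 without RA-Dex replicate b.

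**Figure D1:**
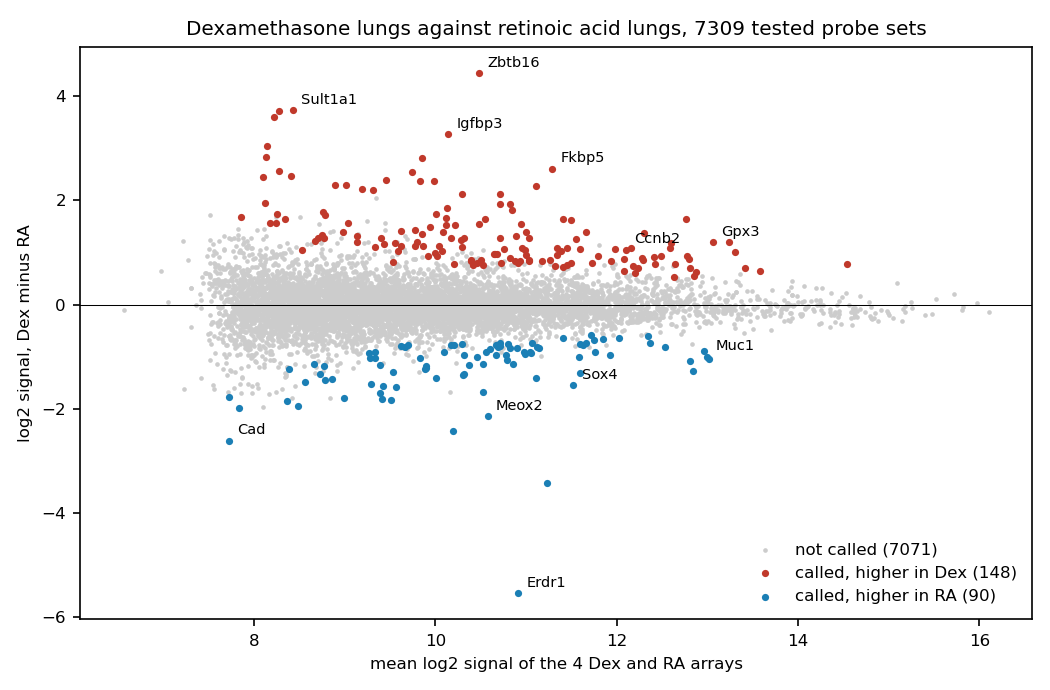
Each point is a tested probe set, with its mean log2 signal over the 4 Dex and RA arrays on the horizontal axis and the log2 difference, Dex minus RA, on the vertical axis; red and blue mark the 148 and 90 called probe sets. Zbtb16 at 4.45 and Erdr1 at -5.54 lie at the ends; some unlabelled called points, such as the 2 blue ones between Erdr1 and Meox2, have no gene symbol.

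Genes known to answer to glucocorticoids were higher in the dexamethasone lungs. Of 37 tested members of that list, 21 were called higher in Dex and none higher in RA, and 33 (89.2%) had both Dex arrays above both RA arrays, which held for 19.7% of all tested probe sets. The list's median log2 difference was 1.17, against -0.03 over all 5618 tested genes, of which 3.51% were called in either direction. Its members are known targets chosen with earlier results of these data known, so the direction is no independent evidence. The count ran from 15 to 23 over all alternative settings.

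Zbtb16, a zinc finger repressor also called PLZF, had signals of 6817 and 6532.5 on the Dex arrays and 349.6 and 268.5 on the RA arrays. The groups lay far apart, at a fold of 21.8 (log2 4.45 ± 0.20 SE, n = 2 arrays a group, limma adjusted p = 9.39e-07). The Dil arrays lay between them at 642 and 892, and the RA-Dex arrays were the highest at 8492 and 8557. Fkbp5, a co-chaperone that dampens the glucocorticoid receptor, stood at 6440.0 and 5917 in Dex and 900.2 and 1134 in RA. That is a 6.11-fold difference (log2 2.61 ± 0.16, adjusted p = 1.28e-05), again with Dil between the groups at 1422 and 1519. Sult1a1, a sulfotransferase of phenols and drugs, was at 1218 and 1306 in Dex against 71.8 and 105 in RA, where 1 array was under the floor. Its fold of 13.3 (log2 3.74 ± 0.26, adjusted p = 3.78e-05) was the second largest rise among genes with a symbol. In all these genes the 2 arrays of a group lay close together and no RA array reached the level of a Dex array.

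Igfbp3, a binding protein that sequesters insulin-like growth factors, had signals of 3320.5 and 3697 in Dex and 397 and 334.5 in RA. The RA arrays were close to Dil, at 286 and 342, and the Dex to RA fold was 9.62 (log2 3.27 ± 0.19, limma adjusted p = 7.76e-06). Igfbp3 was the only called member of 10 tested genes of the insulin-like growth factor system (10%, against 3.51% of all tested genes). Fst, follistatin, which traps activins, rose from 131 and 17.7 in RA to 787 and 717 in Dex, with 1 RA array under the floor (log2 2.83 ± 0.36, adjusted p = 0.00181). Adm, the vasodilator peptide adrenomedullin, was at 821 and 769.9 against 187 and 112 (log2 2.46 ± 0.33, adjusted p = 0.0022). All 3 were low in both groups that had no dexamethasone. Map3k6, a stress-activated kinase of the MAP kinase cascade, was 5.2-fold higher in Dex. The transcription factors Cebpd, Foxo3 and Klf9 were higher by 3.12-fold, 3.07-fold and 2.42-fold. The feedback inhibitors Nfkbia, which holds NF-kappaB in the cytoplasm, and Errfi1, which restrains the EGF receptor, were 2.13-fold and 2.58-fold higher, and neither was called when Dex replicate a was left out (adjusted p = 0.113 for Nfkbia and 0.0508 for Errfi1). Among members that did not pass, Lcn2 had signals of 4493.5 and 4321 in Dex against 2723 and 3089.5 in RA (adjusted p = 0.06). Signals of the receptor gene itself, Nr3c1, and of the classical target Tsc22d3 were too low to be tested.

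**Figure D2:**
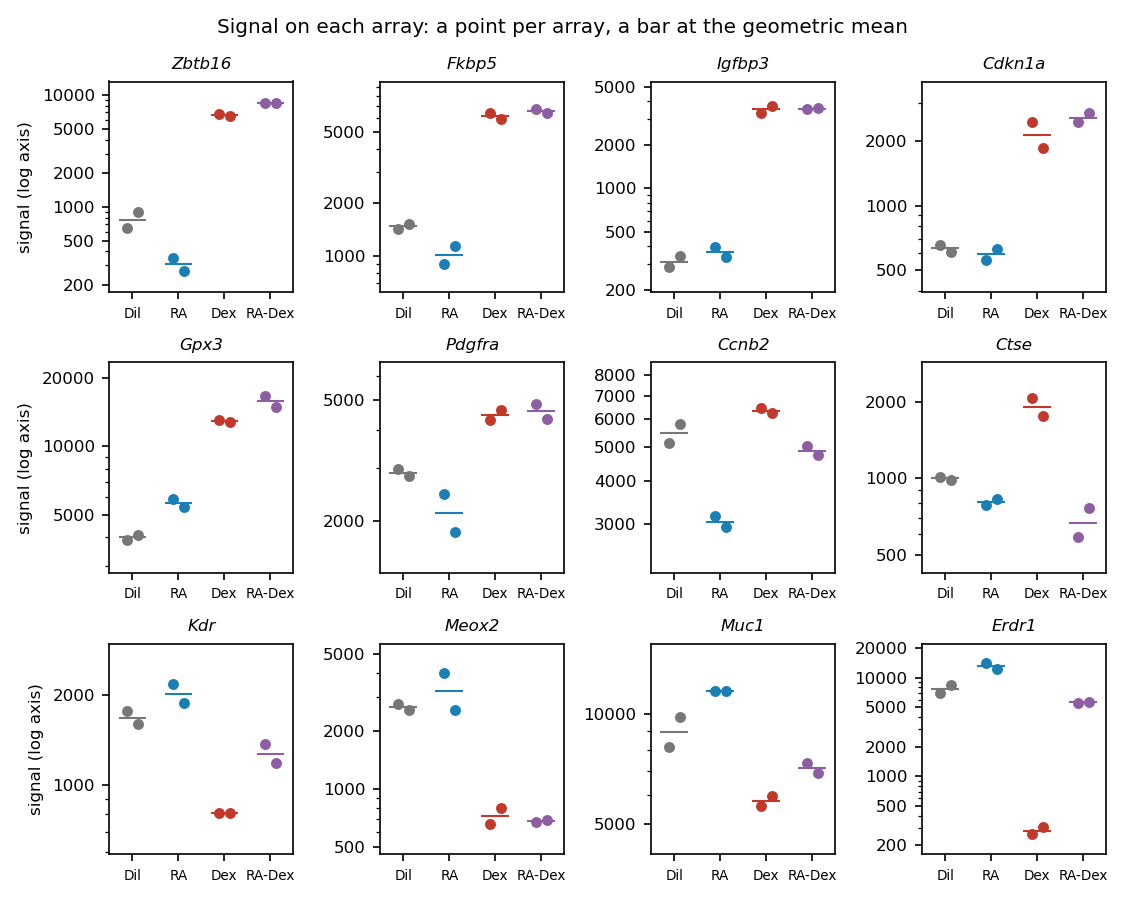
Signal of 12 genes on each of the 8 arrays, on a log axis whose range differs between panels, with a point per array and a bar at the geometric mean of the group. In Zbtb16, Fkbp5, Igfbp3, Cdkn1a and Gpx3 the Dex and RA-Dex arrays lie together above the other groups; Ccnb2 is lowest in RA, Ctse highest in Dex, and Erdr1 lowest in Dex.

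Sgk1 encodes a kinase that raises sodium uptake through the epithelial sodium channel, part of the clearing of lung fluid. Its signals were 5715 and 5894 in Dex and 4044 and 3580.5 in RA, a 1.52-fold difference (log2 0.61 ± 0.14, limma adjusted p = 0.0376), and the groups did not overlap. Sgk1 was the 1 called gene of 13 in ion and water transport (7.69%, against 3.51% of all tested genes). The call was lost without any 1 of the Dex, RA and RA-Dex arrays, with adjusted p from 0.0451 to 0.239 over the 8 fits. A promoter window of the gene, 1 of 6 in the RefSeq table, is shown because it holds the full palindrome of the glucocorticoid response element, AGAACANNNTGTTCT, which 3 of 27025 genes (0.0111%) have in a window from 250 bases before to 50 bases after a start site. The window below is from RefSeq (GRCm38.p6, chr10:21993640-21993939, plus strand), and the capitals mark the palindrome, which begins 189 bases before the start site of that window.
Sgk1: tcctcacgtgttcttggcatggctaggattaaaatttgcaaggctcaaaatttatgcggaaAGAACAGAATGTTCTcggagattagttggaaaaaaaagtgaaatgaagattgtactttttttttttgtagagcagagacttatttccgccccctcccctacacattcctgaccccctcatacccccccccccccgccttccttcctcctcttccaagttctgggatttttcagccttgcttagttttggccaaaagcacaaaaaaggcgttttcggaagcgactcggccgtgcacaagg
The match is a description of letters and not a measured site. The shorter core of that palindrome, ACANNNTGT, occurred in the windows of 13 of 105 genes called higher in Dex (12.4%), 2 of 56 called higher in RA (3.57%) and 236 of 4536 tested genes (5.2%). The shorter element AGAACA, the left arm of the palindrome, occurred in 13 of the 105 (12.4%), 7 of the 56 (12.5%) and 676 of the 4536 (14.9%). The direct repeat of the retinoic acid response element, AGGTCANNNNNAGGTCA, occurred in 3 of all 27025 genes and in no tested gene. These and 5 further patterns given below, 9 in all, were searched on both strands, and they were chosen after the values had been seen.

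Several genes known to halt growth or to answer to stress were higher in Dex. Cdkn1a, the cyclin-dependent kinase inhibitor p21, had signals of 2444 and 1855 in Dex and 556.5 and 629 in RA (log2 1.85 ± 0.19, adjusted p = 4.39e-04). Gas1, a growth arrest protein of the cell membrane, stood at 2364 and 2652 against 1325 and 1082 (log2 1.06 ± 0.17, adjusted p = 0.00747). These 2 were the called members of 21 tested G1 cyclins and cyclin-dependent kinase inhibitors, and without Dex replicate b Gas1 had an adjusted p of 0.0959 and that count fell to 1. Of the 21 genes 9.52% were called, against 3.51% of all tested genes, and their median was 0.06. Both Dex arrays lay above both RA arrays in 6 of the 21 (28.6%), and the reverse held in 6, Ccnd1 and Ccnd2 among them. Ddit4, which shuts down the growth kinase mTORC1, was at 3513 and 3522 in Dex against 765 and 844 in RA (log2 2.13 ± 0.16, limma adjusted p = 5.03e-05). Gadd45g, a stress sensor, was 3.17-fold higher and Dusp1, a phosphatase that switches off MAP kinases, 2.25-fold higher. Fos, a subunit of the AP-1 transcription factor, was 3.13-fold higher, at 2450.3 and 2859 against 833 and 859, but with the mean over the probe sets of a gene its adjusted p was 0.248. With Sgk1 these made 5 of 30 tested immediate early and stress genes called higher in Dex, and 1 member, Egr1, was called higher in RA. Together 20% of that list were called, against 3.51% of all tested genes. Egr1 had signals of 249 and 283 in Dex and 944 and 562 in RA (log2 -1.46 ± 0.33, adjusted p = 0.0388; it falls outside the naming rule and was chosen after its values were seen), and it lost its call without either Dex array, RA replicate a or either RA-Dex array (adjusted p up to 0.221). Per1, a repressor of the circadian clock, was 2.89-fold higher, at 1763 and 2034 against 764 and 563. It was the 1 called gene of 14 clock genes (7.14%, against 3.51% of all tested genes).

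Several genes of fuel use and redox balance were higher in Dex. Pdk4, which spares glucose by blocking pyruvate dehydrogenase, had signals of 1066 and 1047 in Dex and 240.1 and 193 in RA (log2 2.29 ± 0.22, adjusted p = 3.68e-04). Lpl, the lipase that frees fatty acids from circulating lipoproteins, stood at 2293 and 2308 against 562 and 350.4, 5.18-fold higher in Dex. Hk2, a hexokinase, was 2.62-fold higher. They were 3 of 26 tested genes of fatty acid and fuel use, with no member called higher in RA. Both Dex arrays lay above both RA arrays in 10 of the 26 (38.5%), and the reverse held in 3 (11.5%). Hk2 was not called when Dex replicate a or b was left out, and with the mean over the probe sets of a gene its adjusted p was 0.206. Xdh, xanthine dehydrogenase, which makes uric acid, was at 2105 and 2043 against 286.5 and 439.5 (log2 2.55 ± 0.22, adjusted p = 1.87e-04). Gpx3, the secreted glutathione peroxidase, was at 13044 and 12843 against 5898 and 5435 (log2 1.19 ± 0.13, adjusted p = 5.00e-04). Mt2, a metallothionein, was 1.54-fold higher and completed 3 of 29 antioxidant and metal-binding genes; its call was lost without any 1 of the Dex, RA or RA-Dex arrays, with adjusted p up to 0.193. The called shares were 11.5% of the fuel use list and 10.3% of the antioxidant list, against 3.51% of all tested genes. In the antioxidant list both Dex arrays lay above both RA arrays in 6 members (20.7%, near the 19.7% of all probe sets). The reverse held in 8 (27.6%, near the 24.0% of all), and the list's median was 0.02. The Dil arrays of Gpx3 read 3913 and 4118, below both RA arrays, but RA against Dil was not called (limma adjusted p = 0.309).

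In amino acid metabolism the probe sets of Glul, glutamine synthetase, disagreed. One gave 2291 and 2643 in Dex and 277 and 436 in RA (log2 2.82 ± 0.28, adjusted p = 3.68e-04), and the brighter one gave 1651 and 2063 in Dex against 1921 and 1478 in RA and was not called. Gnmt, glycine N-methyltransferase, which uses up methyl groups, stood at 685 and 599.8 against 128 and 108, 5.46-fold higher in Dex. Arg2, the mitochondrial arginase, stood at 820.5 and 685 against 65.6 and 190.1, with 1 RA array under the floor, so that the difference depends on the floor (log2 2.56 ± 0.37, adjusted p = 0.00356), with an adjusted p of 0.0508 without Dex replicate a. In the same list of 11 arginine and polyamine genes Srm, spermidine synthase, went the other way, at 474 and 431.5 in Dex and 825 and 1031 in RA (log2 -1.03 ± 0.23, limma adjusted p = 0.0388). Of that list 18.2% were called, against 3.51% of all tested genes. The Srm call was lost without any 1 of the Dex, RA or RA-Dex arrays (adjusted p up to 0.219). Among the largest rises outside the lists were Otulinl, at 1601 and 1620.2 against 312 and 301, and Clca3a1, a secreted chloride channel regulator, at 1232 and 1078 against 231 and 236.

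Genes of mitosis were lower in the retinoic acid lungs than in the dexamethasone lungs. Of 32 tested members, 10 were called higher in Dex and none higher in RA, against 2.02% of all probe sets, 28 (87.5%) had both Dex arrays above both RA arrays, against 19.7%, and the median log2 difference was 0.78. Summed over 35 members with a probe set, the signal was 56387 and 54394 on the Dex arrays and 33108 and 35938 on the RA arrays. The Dil arrays, at 53079 and 48922, lay just below Dex and the RA-Dex arrays, at 44423 and 43303, between. Ccnb2, cyclin B2, which drives entry into mitosis, had signals of 6437 and 6226 in Dex and 3158 and 2943 in RA (log2 1.05 ± 0.14, adjusted p = 0.00193), and was called under every alternative run. Against Dil, at 5119.5 and 5818, neither group's difference passed the test (Dex log2 0.21, adjusted p = 0.543; RA log2 -0.84, adjusted p = 0.126).

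Kif20a, a kinesin of the central spindle, was at 1650.5 and 1468 in Dex against 672 and 764 in RA (log2 1.12 ± 0.18, adjusted p = 0.00705). Prc1, which bundles microtubules between the separating chromosomes, was at 2171 and 1807 against 739.8 and 913 (log2 1.27 ± 0.25, adjusted p = 0.0206). Cdc20, the activator of the anaphase-promoting complex, was at 3087 and 3535 against 1925 and 1736 (log2 0.85 ± 0.17, adjusted p = 0.0206). In each of these genes both Dex arrays lay above both RA arrays by a margin wider than the gap within a group. The other called members were the kinase Cdk1 (1.8-fold), its partner Cks2 (1.72-fold), the kinesins Kif11 (2.33-fold) and Kif22 (1.7-fold), the chromosomal passenger Birc5 (2.27-fold) and the cytokinesis regulator Racgap1 (1.76-fold). Mki67, the Ki-67 proliferation antigen, had signals of 1074 and 1262 against 496.5 and 572 and did not pass (adjusted p = 0.0795), nor did the topoisomerase Top2a at 1019.7 and 790.4 against 407 and 512 (adjusted p = 0.166). The count of 10 fell to 1 without Dex replicate a, 2 without Dex replicate b, 6 without either RA array and 5 without either RA-Dex array. With the mean over the probe sets of a gene Kif20a had an adjusted p of 0.0864. The count was 2 with no filter on low signals or no intensity trend, 4 with the Dex and RA arrays alone and 5 with a replicate block. The median ran from 0.742 upward over the alternatives.

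Of 28 tested genes of DNA replication 1 was called (3.57%, close to the 3.51% of all tested genes), Mcm5, a subunit of the replicative helicase, and it was higher in RA, at 1675 and 1715 in Dex and 2738 and 3342 in RA (log2 -0.84 ± 0.20, adjusted p = 0.0481). It lost its call without any 1 of the Dex, RA or RA-Dex arrays (adjusted p up to 0.25), and with the mean over the probe sets of a gene its adjusted p was 0.99. Both RA arrays lay above both Dex arrays in 12 members (42.9%, against 24.0% of all probe sets) and the reverse held in 6 (21.4%, close to the 19.7% of all), and the list's median was -0.26. The helicase subunits Mcm4, at 531 and 642 in Dex and 850.1 and 1285 in RA, and Mcm3, at 1228 and 1351.5 in Dex against 1660.2 and 1930.5 in RA, did not pass. The summed signal of 39 replication genes was 22653 and 22492 in Dex, 26573 and 28940 in RA, 32062 and 30038 in Dil, and 20227 and 19846 in RA-Dex. The lowest sums thus belonged to the groups given dexamethasone for replication and to the group given retinoic acid alone for mitosis.

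**Figure D3:**
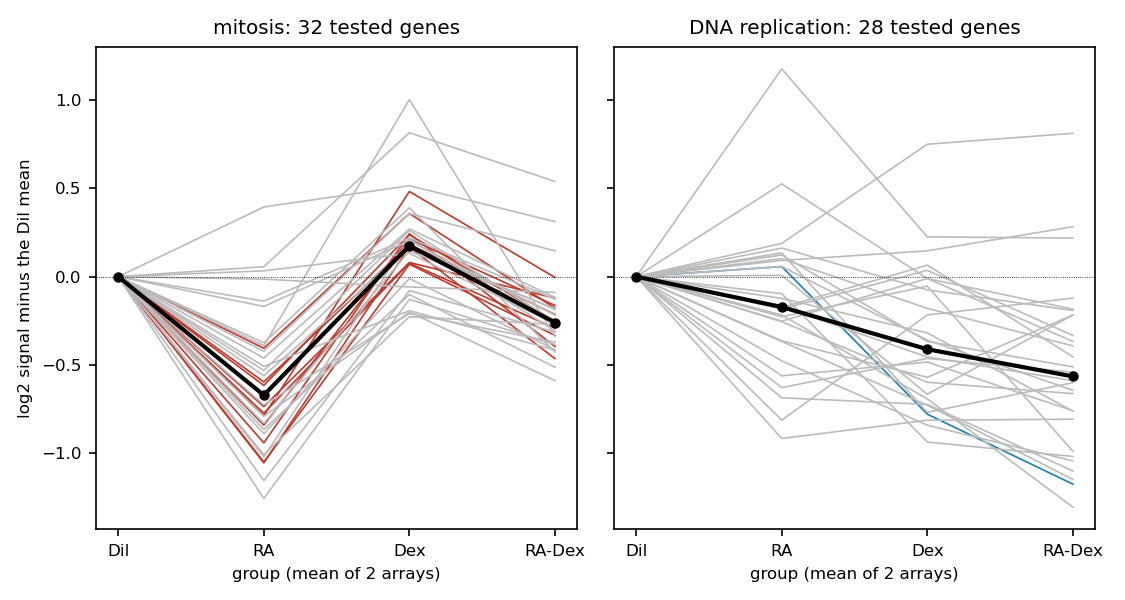
Mean log2 signal of each group minus the Dil mean, a line per tested gene, for 32 mitosis genes and 28 DNA replication genes; red lines were called higher in Dex, blue higher in RA, and the black line is the list's median. The mitosis median is lowest in RA, at -0.67, and 0.18 in Dex, whereas the replication median is -0.17 in RA and -0.41 in Dex.

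The promoters of the mitosis genes, called or not, shared letters. The cell cycle genes homology region, TTTGAA, together with a CCAAT box, CCAAT, is the known signature of genes expressed in the G2 and M phases. A window of 300 bases from RefSeq was on hand for 25 of the 32 tested members, and 19 of the 25 (76.0%) held both patterns, against 280 of 4536 tested genes (6.17%) and 2 of 26 replication genes (7.69%). Among called members the share was alike, 7 of 9 (77.8%). The pair is thus a trait of the list, held by called and other members alike. Over all lists and genes, it was in 14 of 105 genes called higher in Dex (13.3%) and 0 of 56 called higher in RA. The 14 include the called mitosis genes that hold it. Its part in the difference between Dex and RA was not tested. CCAAT alone was in 22 of the 25 (88.0%) against 1938 of the 4536 (42.7%), and TTTGAA alone in 20 (80.0%) against 651 (14.4%). The second form of the homology region, TTCGAA, was in 1 of the 25 (4.0%) against 113 (2.49%). The E2F site TTTCGCGC was in 4 of the 26 replication genes (15.4%), 1 of the 25 mitosis genes and 37 of the 4536 (0.816%), and its other form TTTGGCGC in 4 of the 26 (15.4%), none of the 25 and 56 of the 4536 (1.23%). The promoters of 4 called mitosis genes are shown because they carry the pair; capitals mark CCAAT and TTTGAA on either strand (GRCm38.p6; Ccnb2 chr9:70421505-70421804, minus strand; Cdc20 chr4:118437294-118437593, minus strand; Prc1 chr7:80294201-80294500, plus strand; Cdk1 chr10:69352863-69353162, minus strand).
Ccnb2: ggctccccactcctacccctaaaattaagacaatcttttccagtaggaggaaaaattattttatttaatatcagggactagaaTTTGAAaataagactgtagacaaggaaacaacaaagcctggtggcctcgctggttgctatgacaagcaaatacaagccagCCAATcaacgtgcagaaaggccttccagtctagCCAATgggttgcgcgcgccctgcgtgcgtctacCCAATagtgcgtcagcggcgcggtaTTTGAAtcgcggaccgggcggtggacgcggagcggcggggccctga
Cdc20: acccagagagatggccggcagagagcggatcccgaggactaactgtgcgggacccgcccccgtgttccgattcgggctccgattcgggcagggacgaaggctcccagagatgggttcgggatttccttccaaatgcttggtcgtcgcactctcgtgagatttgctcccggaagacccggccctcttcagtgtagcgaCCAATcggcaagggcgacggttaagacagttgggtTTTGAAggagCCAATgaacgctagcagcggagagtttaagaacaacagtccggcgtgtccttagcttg
Prc1: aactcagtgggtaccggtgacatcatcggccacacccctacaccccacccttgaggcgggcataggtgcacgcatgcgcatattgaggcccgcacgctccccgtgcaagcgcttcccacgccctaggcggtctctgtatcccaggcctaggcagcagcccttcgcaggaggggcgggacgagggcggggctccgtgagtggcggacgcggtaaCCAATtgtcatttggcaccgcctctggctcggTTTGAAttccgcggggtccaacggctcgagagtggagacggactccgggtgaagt
Cdk1: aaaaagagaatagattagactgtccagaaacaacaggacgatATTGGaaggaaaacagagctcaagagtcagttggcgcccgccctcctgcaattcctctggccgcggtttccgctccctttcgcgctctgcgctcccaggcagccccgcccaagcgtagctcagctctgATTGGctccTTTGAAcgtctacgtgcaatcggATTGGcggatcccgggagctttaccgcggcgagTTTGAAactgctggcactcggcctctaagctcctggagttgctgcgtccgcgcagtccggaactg
Ccnb2 and Cdk1 hold 3 CCAAT and 2 TTTGAA each, Cdc20 holds 2 and 1, and Prc1 holds 1 of each.

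Septal growth factors differed in both directions. Pdgfra, the receptor that marks the fibroblasts of the growing septum, was higher in Dex, at 4304 and 4645 against 2452 and 1849.5 in RA (log2 1.07 ± 0.17, adjusted p = 0.0057). Its ligand Pdgfa was higher in RA, at 2337 and 2435 in Dex and 4012 and 4026 in RA (log2 -0.75 ± 0.15, adjusted p = 0.0223). The Dil arrays stood between the groups for the receptor, at 2963 and 2828, and near RA for the ligand, at 3451 and 4109.8. Fgfbp1, which releases fibroblast growth factors from the matrix, was 3.88-fold higher in Dex, and Dusp6, a phosphatase that limits ERK signalling, 1.64-fold higher. These made 3 members called higher in Dex and 1 called higher in RA of 13 tested in PDGF and FGF signalling (30.8% called, against 3.51% of all tested genes). Without Dex replicate b none of the 4 was called (adjusted p = 0.075 for Pdgfra and 0.0684 for Fgfbp1), and without replicate a only Pdgfra remained; Pdgfa and Dusp6 were lost without any 1 of the Dex and RA arrays (adjusted p up to 0.173 and 0.161). With the mean over the probe sets of a gene the adjusted p was 0.334 for Pdgfra and 0.564 for Dusp6. Fgf7 had signals too low to be tested.

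Of 28 genes of TGF-beta, activin and BMP signalling 7.14% were called, against 3.51% of all tested genes. Fst was higher in Dex and Bmp4, a morphogen of the lung bud and its vessels, higher in RA. Bmp4 was at 1034 and 964 in Dex against 1945 and 2049.6 in RA (2-fold higher in RA, SE 0.19 on the log2 scale, adjusted p = 0.0151), with the call lost without Dex replicate a (0.0945) or b (0.125) or RA replicate b (0.0599). Eln, elastin, the fibre of the septal tip, was not called, at 46879 and 51392 in Dex and 47609 and 43079 in RA (log2 0.12 ± 0.15, adjusted p = 0.807). Lox, which cross-links elastin and collagen, was the 1 called gene of 12 in elastic fibre assembly (8.33%). It stood at 2647 and 3391.5 against 1327 and 1091 (log2 1.32 ± 0.19, limma adjusted p = 0.00332). Without Dex replicate b its adjusted p was 0.0594, and with the mean over the probe sets of a gene it was 0.583. Another Lox probe set was dim and differed in the other direction without being called, at 93.9 and 231.5 in Dex and 238.2 and 201.6 in RA. Of 23 collagen chains and enzymes 1 was called, the transmembrane collagen Col13a1, 1.87-fold higher in RA and lost without any 1 of 5 arrays, Dex a, Dex b, RA a, RA-Dex a and RA-Dex b (adjusted p up to 0.2). The called share of the collagen list, 4.35%, was near the 3.51% of all tested genes. None of 15 smooth muscle and myofibroblast genes was called, Acta2 among them at 9344 and 8480.5 against 9640.2 and 9610.5, and their median was -0.18.

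Among 20 proteases and inhibitors, 4 were called (20%, against 3.51% of all tested genes). Ctse, the aspartic protease cathepsin E, was at 2072 and 1761 in Dex against 785 and 828 in RA (log2 1.25 ± 0.20, adjusted p = 0.00584), and its RA-Dex arrays, at 586 and 764, lay below both RA arrays. Ctsh, the cathepsin that trims surfactant proteins in type II cells, was at 14901.5 and 13854 against 6395 and 8002, 2.01-fold higher in Dex. Timp3, an inhibitor of matrix metalloproteinases, was 1.73-fold higher in Dex, and the metalloproteinase Mmp11 was 2.03-fold higher in RA. Without Dex replicate a the count higher in Dex fell from 3 to 0 (adjusted p = 0.084 for Ctse and 0.0508 for Ctsh); Timp3 was lost without either Dex array, RA replicate b or either RA-Dex array (up to 0.186), and Mmp11 without either Dex array or either RA array (up to 0.2). Another Ctse probe set was called as well, at 2325 and 2947 against 541 and 671, and the remaining one differed by -0.11 on the log2 scale without being called.

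Among genes higher in RA, Erdr1 stood apart. Erdr1 lies in the pseudoautosomal region of the sex chromosomes, and its signals were 259.5 and 307 in Dex against 14029.5 and 12290.5 in RA. The difference of 46.5-fold (log2 -5.54 ± 0.16, adjusted p = 1.70e-08) was the largest of all tested probe sets. The Dil arrays, at 7064 and 8363, and the RA-Dex arrays, at 5591 and 5723, were both high, so the low values belonged to the Dex arrays alone. Cad, the enzyme that opens pyrimidine synthesis, had both Dex arrays under the floor, at 63.4 and 67.8, against 634 and 428 in RA, at least 6.11-fold higher in RA (adjusted p = 0.00216). It was the 1 called gene of 18 in nucleotide synthesis (5.56%, against 3.51% of all tested genes). Car8, a relative of the carbonic anhydrases that lacks their activity, was at 267 and 277 in Dex against 986.5 and 912 in RA. Hmces, which shields abasic DNA, and Mapk7, the kinase ERK5, were 3.61-fold and 3.84-fold higher in RA; Hmces lost its call without Dex replicate b (adjusted p = 0.0594), and Mapk7 without that array, either RA array or either RA-Dex array (up to 0.123).

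Meox2, Sox4 and Irx3, transcription factors of development, were among the largest falls in Dex. Meox2, a homeobox factor of mesenchymal and vascular cells, had signals of 658.5 and 802 in Dex and 4001 and 2584 in RA (log2 -2.15 ± 0.22, adjusted p = 3.92e-04). Sox4, a factor of progenitor cells, was at 1566 and 1880.1 against 5487 and 4603 (log2 -1.55 ± 0.17, adjusted p = 5.64e-04). Irx3, an Iroquois homeobox gene, was at 816 and 835 against 2799 and 2483, 3.19-fold higher in RA. All 3 were called without each array in turn, although another Sox4 probe set was not in 5 of those fits, and in each the Dil arrays lay nearer to RA than to Dex. Meox2 was the 1 called member of 21 lung transcription factors, a share near that of all genes, and the list's median was -0.28. Without RA replicate b the count was 2, while without RA replicate a 1 member was also higher in Dex. Of 23 axon guidance genes 17.4% were called, against 3.51% of all tested genes. Among them Unc5c, a netrin receptor, was at 421 and 380.5 against 1308 and 1060.5 (log2 -1.56 ± 0.21, limma adjusted p = 0.00208). St8sia2, which puts polysialic acid on the adhesion molecule NCAM, was 2.36-fold higher in RA and had an adjusted p of 0.0874 without Dex replicate a, where Unc5c was the 1 member left higher in RA. Efna1, an ephrin ligand, was 1.73-fold higher in RA but was not called in any of the 8 fits that left out an array (adjusted p from 0.0607 to 0.228). Sema7a was the 1 called member higher in Dex, 1.96-fold, and it was lost without any 1 of 5 arrays, both Dex arrays, both Dil arrays and RA replicate b (up to 0.286), and with the mean over the probe sets of a gene (0.199).

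Vascular genes differed in both directions. Kdr, the main receptor for vascular endothelial growth factor, was at 807 and 809.6 in Dex against 2178 and 1879 in RA (log2 -1.32 ± 0.17, adjusted p = 0.00193). Gja4, the connexin 37 of arterial endothelium, was at 796 and 792 against 2019.9 and 2024 (log2 -1.35 ± 0.19, adjusted p = 0.00301). Against these 2, Adm and Lyve1, a hyaluronan receptor of lymphatic and lung capillary endothelium, were higher in Dex, Lyve1 by 1.73-fold and in no fit that left out an array (adjusted p from 0.051 to 0.307). Flt1, the other receptor for the same growth factor, was at 944.5 and 1085 against 911 and 759 and did not pass (adjusted p = 0.634; another probe set had the opposite sign, at -0.15 on the log2 scale), nor did the endothelial cadherin Cdh5. The list of 31 thus held 2 calls each way (12.9% called, against 3.51% of all tested genes), with a median of -0.05. Clec3b, tetranectin, was at 395 and 486 in Dex against 1334.5 and 1283 in RA, 2.99-fold higher in RA. Lyl1, a helix-loop-helix factor of blood and endothelial cells, was at 78.6 and 153 against 354 and 431, with 1 Dex array under the floor, and it was called in no fit that left out an array (adjusted p from 0.0594 to 0.257). Of 16 tested chemokines, cytokine receptors and adhesion molecules 12.5% were called, against 3.51% of all tested genes. Vcam1, an adhesion molecule for leukocytes, was 3.55-fold higher in RA, and Cxcl12, a chemokine that holds progenitors in place, had 2 probe sets higher in RA, the brighter one at 651 and 617 against 1519 and 1350.4. They were the called members of 16 chemokines and adhesion molecules; without Dex replicate b neither was called (adjusted p = 0.108 for Vcam1 and 0.0594 for that Cxcl12 probe set), and Vcam1 was also lost without Dex replicate a (0.0945) or RA replicate b (0.0805), and with the mean over the probe sets of a gene (0.161). Without RA replicate a 1 member of that list was called higher in Dex.

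Genes of the surfactant-making type II cell differed in both directions. Of 13 type II cell genes, 3 were called higher in RA and 1, Ctsh, called higher in Dex (30.8% called, against 3.51% of all tested genes). Muc1, a mucin of the apical membrane, was at 5595 and 5985 in Dex against 11549.7 and 11584.5 in RA (2-fold higher in RA, SE 0.14 on the log2 scale, adjusted p = 0.0022). Scd1, which desaturates fatty acids, was at 5149.8 and 4706.5 against 10616 and 10196 (log2 -1.08 ± 0.16, adjusted p = 0.00332). Lpcat1, which remodels surfactant phosphatidylcholine, was 1.59-fold higher in RA and was called in no fit that left out an array (adjusted p from 0.0517 to 0.316). Muc1 kept its call in all of them, and Scd1 lost it without Dex replicate b (0.0558), where the count higher in RA was 1, and with the mean over the probe sets of a gene (0.286). Ctsh was lost without Dex replicate a (0.0508). None of 8 type I cell genes and none of 6 airway genes was called; Hopx, a type I cell factor, was at 20177 and 18501 in Dex against 15352 and 14939.7 in RA, and Cyp2f2, a club cell enzyme, at 6763.5 and 7385 against 7967 and 7976.

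The retinoid pathway showed 1 called gene of 16 (6.25%, against 3.51% of all tested genes). Adh1, an alcohol dehydrogenase that oxidizes retinol, was at 5251 and 4228 in Dex against 9965 and 13153.5 in RA (log2 -1.28 ± 0.18, adjusted p = 0.00246), but the Dil arrays were higher still, at 13589 and 16564, and the RA-Dex arrays as low as Dex, at 4367 and 4905. Dhrs3, which turns retinal back to retinol and is known to rise with retinoic acid, was at 1077.5 and 1060.1 in Dex against 1299.9 and 1589.9 in RA, and did not pass (adjusted p = 0.294). Aldh1a1, which makes retinoic acid, was at 12453 and 11538 against 8257 and 9209 and did not pass either (adjusted p = 0.105). Crabp2, Stra6 and Aldh1a2 had signals too low to be tested, and no probe set of their own was matched to Rarb or Cyp26b1.

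Of the blood cell lists, the macrophage and B cell markers held genes higher in RA. Of 17 macrophage markers 2 were called, both higher in RA, against 1.23% of all probe sets, 12 (70.6%) had both RA arrays above both Dex arrays, against 24.0%, and the median was -0.46. In 2 members (11.8%, against 19.7% of all probe sets), C1qa and Chil3, both Dex arrays lay above both RA arrays. Tyrobp, a signalling adaptor of myeloid cells, was at 1371 and 1131.5 in Dex against 2137 and 2131 in RA (log2 -0.78 ± 0.17, adjusted p = 0.0388), and Apoe, a lipid carrier, at 5427 and 6298 against 13224 and 8846 (log2 -0.89 ± 0.20, adjusted p = 0.0371). Both were lost without either Dex array, RA replicate a or either RA-Dex array, Tyrobp also without RA replicate b (adjusted p up to 0.286 and 0.252), and with the mean over the probe sets of a gene Apoe had an adjusted p of 0.666. Csf1r, the receptor that defines the lineage, was at 609.9 and 646.5 against 1107 and 1044, and Cd68 at 629.9 and 575.5 against 975 and 1107, neither of them called. Nor was C1qa called, slightly higher in Dex at 1071 and 1152 against 1011 and 988, or Lyz2, whose Dex and RA arrays overlapped. The summed signal of 25 macrophage markers was 34234 and 34905 in Dex, 50805 and 44593 in RA, 39766 and 41392 in Dil, and 35161 and 35752 in RA-Dex.

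Of 10 B cell markers 2 were called (20%, against 3.51% of all tested genes), both higher in RA, and the median was -0.79. Ighm, the heavy chain of immunoglobulin M, had 2 called probe sets. The brighter one, which the count uses, read 1116 and 1222 in Dex against 2173 and 2384 in RA (log2 -0.96 ± 0.17, adjusted p = 0.012), and leaving out RA replicate b (0.0565) or either Dex array (0.127 for a and 0.0756 for b) ended its call. The dimmer one, at 374 and 373 against 1237 and 1177 (log2 -1.69 ± 0.20, adjusted p = 0.00105), was called without each array in turn. The variable segment Igkv6-23 was 3.51-fold higher in RA, and Cd79b, part of the antigen receptor, was 2.25-fold higher. The count of 2 fell to 1 without Dex replicate a or either RA-Dex array and to 0 without Dex replicate b or RA replicate b, with adjusted p up to 0.193 for Cd79b. The summed signal of 17 B cell markers was 9217 and 8811 in Dex and 12476 and 11618 in RA. The part of cell numbers in these differences was not tested. Of 19 interferon-stimulated genes 10.5% were called, against 3.51% of all tested genes. These were Rsad2, an antiviral enzyme, and Isg15, a ubiquitin-like protein, both higher in Dex. Rsad2 was at 1069 and 1033 against 445 and 425 (log2 1.27 ± 0.19, adjusted p = 0.00491) and Isg15 at 1277 and 959 against 581 and 501. Neither was called without Dex replicate a (adjusted p = 0.0576 for Rsad2) or Dex replicate b (0.0519), and without RA replicate a or RA replicate b 1 of the 2 was.

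The remaining lists held few or no calls. Among 25 ribosome biogenesis genes 1 was called, a share near that of all genes. Gar1, which guides pseudouridine into ribosomal RNA, was 2.1-fold higher in RA, and the list's median was -0.36, with both RA arrays above both Dex arrays in 15 members, where the share of all probe sets was 24.0%. Against the 3.51% of all tested genes, the next 3 lists held 1 call each. Alas2, the first enzyme of haem synthesis in red cells, was 1.85-fold higher in Dex, the 1 called of 11 erythroid genes (9.09%). The chaperone Hspb8 was 1.8-fold higher, the 1 called of 31 heat shock genes (3.23%). Ppl, periplakin, was 1.96-fold higher, the 1 called of 12 squamous epithelium genes (8.33%). Each of these 4 lost its call when either Dex array was left out (adjusted p up to 0.11 for Gar1, 0.25 for Alas2, 0.252 for Hspb8 and 0.116 for Ppl), Gar1 also without RA replicate a, and Alas2 and Hspb8 without RA replicate a or either RA-Dex array. The mean over the probe sets of a gene gave 0.282 for Gar1, 0.0559 for Alas2 and 0.385 for Hspb8. No gene was called among 7 of MHC class II presentation, 7 T and NK cell markers, 9 neutrophil genes, 15 of cholesterol synthesis, 24 ribosomal proteins, 45 oxidative phosphorylation subunits, 13 heart muscle genes and 14 skeletal muscle genes. The heart muscle sums, 22045 and 22419 in Dex against 25489 and 25975 in RA, and the skeletal muscle sums, 10625 and 9301 against 11477 and 10405, were below those of Dil, at 31562 and 32823 for heart and 15914 and 15926 for skeletal muscle.

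**Figure D4:**
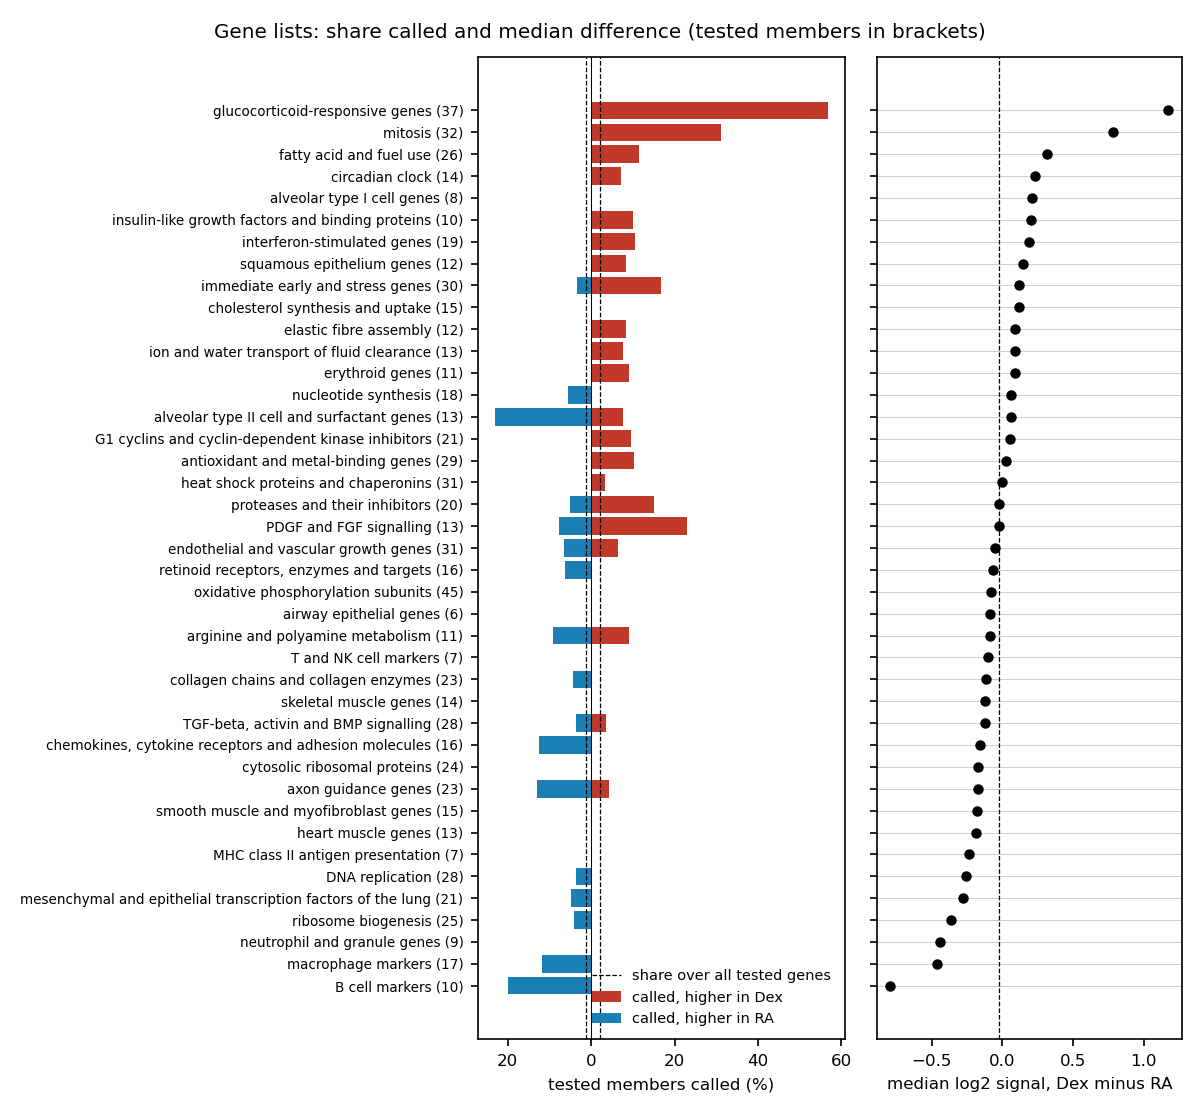
For each of 41 gene lists, the left panel gives the share of tested members called higher in Dex (red, to the right) or higher in RA (blue, to the left), with dashed lines at the shares over all 5618 tested genes, and the right panel the median log2 difference. Glucocorticoid-responsive genes (21 of 37) and mitosis genes (10 of 32) lie at one end and B cell markers, with a median of -0.79, at the other.

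The other 2 groups were set between the arms. On a scale where the RA mean is 0 and the Dex mean 1, Dil lay nearer to RA in 120 of the 148 probe sets higher in Dex and in 79 of the 90 higher in RA, with median positions of 0.113 and 0.158. RA-Dex lay nearer to Dex in 132 of the 148 and in 76 of the 90, with medians of 1.03 and 0.848. Over all tested probe sets Dil was nearer to Dex in 44% and RA-Dex nearer to Dex in 63.44%. All 21 called glucocorticoid-responsive genes had Dil nearer to RA and RA-Dex nearer to Dex. The 10 called mitosis genes were the reverse for Dil, which was nearer to Dex in all of them (median 0.796), and RA-Dex was nearer to Dex in 5 and nearer to RA in 5. In their own contrasts, which share arrays with this one, Dex against Dil called 236 probe sets (3.23%) and RA against Dil 2 (0.0274%), with 584 at an unadjusted p under 0.05. Without RA replicate b the 2 calls of RA against Dil became 16, and without either Dil array 5.

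**Figure D5:**
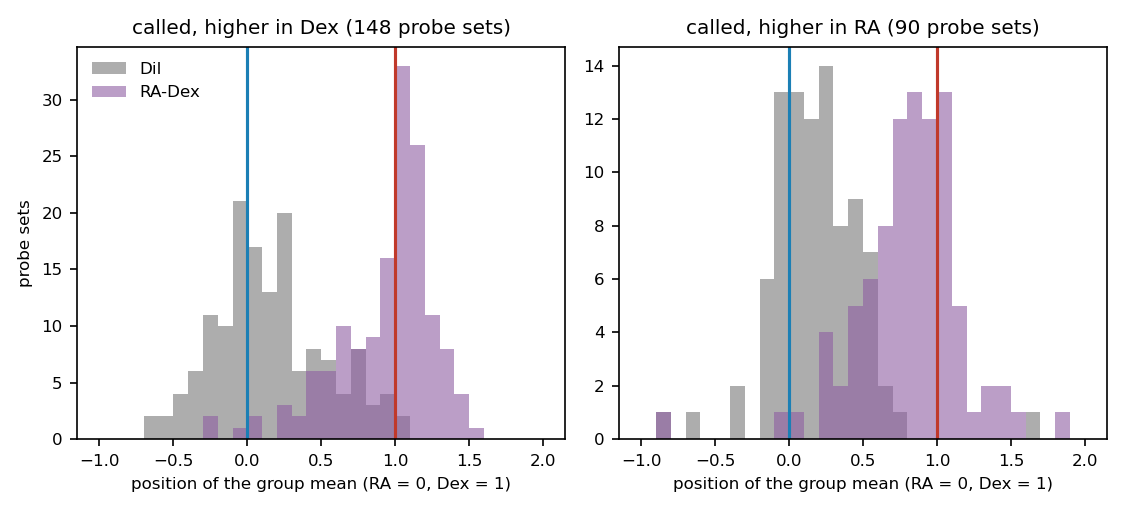
Number of called probe sets by the position of the Dil mean (grey) and the RA-Dex mean (purple) on the log2 scale that puts RA at 0 (blue line) and Dex at 1 (red line), with positions beyond the axis drawn in its end bins. In both panels most Dil means lie nearer to RA, with medians of 0.113 and 0.158, and most RA-Dex means nearer to Dex, with medians of 1.03 and 0.848.

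In some genes the 2 arms lay on opposite sides of Dil, both arrays of each clear of both Dil arrays. Dex was above and RA below Dil in 50 of the 238 called probe sets (21.0%) and in 128 of all 7309 tested (1.75%), and the reverse held in 45 (18.9%) and 190 (2.6%). Either pattern needs Dex and RA arrays that do not overlap, which all 238 called probe sets had, so their larger shares are partly built in. Of all tested probe sets, 1443 had both Dex arrays above both RA arrays and 1756 the reverse. Each pattern was open to only 1 direction of call, 148 higher in Dex or 90 higher in RA. Called genes with Dex above and RA below Dil included Zbtb16, Fkbp5, Sult1a1, Xdh, Pdgfra, Ctse and Ccnb2. Those with the reverse included Erdr1, Vcam1, Irx3, Kdr, Bmp4, Muc1 and Scd1. Kdr shows the form, at 807 and 809.6 in Dex, 1765 and 1605 in Dil and 2178 and 1879 in RA, and so does Muc1, whose Dil arrays read 8141 and 9821. The step from Dil to RA was not called in either gene (adjusted p = 0.767 for Kdr and 0.522 for Muc1), whereas the direct contrast of the arms was.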

How the data were processed

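The data are 8 Affymetrix mouse arrays, 2 for each of 4 groups taken from the sample titles. The authors deposited linear intensity signals that were already scaled: their 2% trimmed mean lay between 800.411 and 800.441 on every array, and they were not normalized again. The software and the method of summarising probes cannot be stated from the sources used here. Of 12488 probe sets, 66 controls were left out. Of the other 12422, 10833 had 1 gene symbol in an annotation dated 2016, 396 had several and 1193 none, and 10817 were matched by Entrez ID to the RefSeq table of GRCm38.p6. Signals under 85.3043, the pooled 25th percentile, were set to that floor before log2, and 7309 probe sets with a mean log2 signal above that of 200.814, the pooled 40th percentile, were tested. Where probe sets of a gene differ, lists use the one of highest mean signal.

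One mean per group was fitted over all 8 arrays with limma 3.58.1 in R 4.3.3 (lmFit and eBayes with an intensity trend, 4 residual and 6.691 prior degrees of freedom), the two-sided moderated test had its p adjusted over the 7309 probe sets by Benjamini-Hochberg, and an adjusted p under 0.05 is a call. Errors after ± are standard errors of that fit. The script was tested on simulated data. Named genes were the 15 largest called rises and falls, up to 4 called members of each list by smallest p (where none was called, up to 2 of highest signal), and a set of receptor, retinoid and lung genes; further list members were named for their role after their values were seen. The members, lists and genes were chosen with earlier results of these data known. Same-letter arrays deviated with correlations from -0.221 to 0.136, so the letters were not taken as pairs. Promoter sequences came from a RefSeq table of 300-base windows. Alternatives were other normalizations, filters, variance models, probe set summaries and sets of arrays. The number of arrays limits the precision.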

Additional observations from a re-analysis of the deposited data

Results flagged for a closer look

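In 27 named genes, Dex and RA lay on opposite sides of Dil, both arrays of each clear of both Dil arrays. The direct difference between the arms passed the limma test in these genes, but genes were picked for naming by that same test, so its passing adds no support. The effects of both arms are measured from the same Dil arrays, and the step from Dil to RA was called in none of the 27 (limma called 2 probe sets in RA against Dil, neither of them among these genes). The step from Dil to Dex did not pass in Ccnb2 either, and Ccnb2 was not the only gene with a small one. As log2 differences, Dex minus Dil, it was -0.27 in Scd1, -0.32 in Apoe and -0.45 in Col13a1. It was larger in others, such as -1.23 in Vcam1. Lying on opposite sides of Dil thus does not mean that a step from Dil was called. The log2 differences below are Dex minus RA. Dex was above and RA below Dil in 10 of them: Zbtb16 at 4.445, Sult1a1 at 3.738, Fkbp5 at 2.611, Xdh at 2.547 and Gnmt at 2.448, then Rsad2 at 1.272, Ctse at 1.245, Pdgfra at 1.07, Ccnb2 at 1.054 and Dusp6 at 0.715.

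Dex was below and RA above Dil in the other 17. The largest were Erdr1 at -5.539, Vcam1 at -1.828, Car8 at -1.802, Lyl1 at -1.774, Ighm at -1.691, Irx3 at -1.675, Clec3b at -1.579 and Kdr at -1.324. The smaller were Scd1 at -1.079, Gar1 at -1.071, Srm at -1.029, Bmp4 at -1.0, Muc1 at -0.999, Col13a1 at -0.905, Apoe at -0.888, Efna1 at -0.794 and Tyrobp at -0.777. The value of Ighm is that of its dimmer probe set; in the brighter one the RA arrays did not lie above the Dil arrays. In Lyl1 and Efna1 the call was lost without any 1 of the 8 arrays.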

How the results depend on the processing

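Of the 238 calls of Dex against RA (148 higher in Dex, 90 higher in RA), the total stayed within 1.5 times under cyclic loess or quantile normalization, a pseudocount, a robust variance model, a stricter filter, a minimum fold change and, chosen after seeing the data, without both Dil arrays (232). With the mean over the probe sets of a gene it was 156 (94 higher in Dex), without the filter on low signals 111 (66 and 45), without the intensity trend 111 (75 and 36), and with the Dex and RA arrays alone 124 (86 and 38). Leaving out 1 array in turn gave 83 to 228 calls (55 to 153 and 27 to 75). With the replicate block there were 169 (112 higher in Dex and 57 higher in RA); the letters share only a number. Dex against Dil called 236, which became 155 with the mean over the probe sets, 96 without the filter, 112 without the trend and 80 to 273 without 1 array. RA against Dil called 2, which became 1 with the mean over the probe sets or a stricter filter, 11 without the filter, 0 without the trend (limma; 584 in the reported fit at an unadjusted p under 0.05) and 2 to 16 without 1 array. The cause of these shifts was not tested. No filter shared 75 calls with the reported 238, no trend 100 and the Dex and RA arrays alone 120. Of 104 named genes none reversed under the 20 alternatives, and 23 of the 77 called ones kept their call in every alternative that tested them. Some of the 23 were not tested in all 20, such as Sult1a1, tested in 18. With 2 arrays a group, 1 array often decides a call.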

Other observations

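A few genes chosen after their values were seen lie outside the lists. Inmt, an N-methyltransferase abundant in lung, was 1 of the 2 probe sets called in RA against Dil, at 1919.9 and 2482 in RA and 577 and 585 in Dil (log2 1.91 ± 0.18, limma adjusted p = 0.00484). It was lower in Dex than in RA, at 1071 and 927, and highest in RA-Dex, at 3979 and 4502.5, so that each agent alone read above Dil and both together above either. Without Dex replicate b the difference between Dex and RA was not called (adjusted p = 0.0881). The other probe set called in RA against Dil has no gene symbol and was bright on the Dil arrays alone, at 4484 and 1447, against 104 and 92.6 in RA.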
